A study of Homo sapiens with 16 samples.

Results

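The response of MDA-MB-468 cells to high glucose was measured by RNA-seq in 8 of the 16 samples of the study. MDA-MB-468 is an established human breast cancer cell line of basal type that lacks the estrogen receptor. Cells of this line were conditioned in low-glucose medium, plated in T25 flasks and kept for 48 hours without serum in medium with 5 mM glucose, the control, or with 25 mM glucose to model hyperglycemia, called low and high glucose here, with 4 replicates each. The other 8 samples are the same design in MDA-MB-231, a second line labelled ER negative, and serve here only for comparison. A gene was a member of the comparison if it reached 0.5 CPM (reads scaled to the library's total) in 2 or more of the 8 MDA-MB-468 libraries, which kept 15757 of the 18332 genes in the table. All differences are high minus low glucose. The mannitol control that the methods mention for osmolarity is not among these samples, so glucose and osmolarity cannot be told apart.

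Glucose enters cells through facilitative transporters and is phosphorylated by hexokinase, after which it feeds glycolysis, the pentose phosphate shunt, glycogen, hexosamines for glycosylation, and, as pyruvate, the mitochondrial respiratory chain. Basal-type breast cancer cells keep part of the program of stratified epithelium, with basal keratins, kallikrein peptidases and a high level of EGFR. They also often run NF-kB and interferon programs of their own, which maintain chemokines and antigen presentation without immune cells.

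The identity markers of the labelled line were checked first. EGFR, which is amplified in this line, lay between 58085 and 64730.1 normalized reads, and KRT5, a basal keratin, between 14567 and 17928. RB1 and SMAD4, both deleted in the line, stayed at or below 22.5 and 6.55, SMAD4 under the filter. VIM, a mesenchymal marker, reached no more than 35.4, and PTPRC, the leukocyte marker, no more than 12.3. Other genes checked as markers of MDA-MB-231 differed in level. ZEB1, SPARC and AXL had low glucose means of 2.84, 7.84 and 27.1. CD44, MSN and CAV1 had 25508, 5912 and 1373, beside 17995, 23255 and 6783 in low glucose MDA-MB-231. Among markers of other cells, the collagen COL1A1 had a low glucose mean of 254. CD68, PDGFRB, VWF and CDH5 had 34.6, 10.3, 8.18 and 0.593. Hormone receptor and luminal markers were not uniformly absent. ESR1, the estrogen receptor gene, had 52.98 to 69.7 in low and 38.2 to 52.3 in high glucose (means of 3.68 and 2.70 CPM). It was called lower (log2 fold change -0.41, limma adjusted p = 0.0418), a call that 16 of 25 alternatives lost. TFF1 was at 0 in all 8 libraries, whereas the keratins KRT8, KRT18 and KRT19 had means of 41401, 19779 and 25502 in low glucose, and the factors XBP1, GATA3 and FOXA1 means of 3725, 621 and 339.

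The libraries held between 14094597 and 19901922 reads, and 3 reads, the floor used here, corresponded to 0.151 to 0.213 CPM. High glucose libraries 3 and 4 stood apart from the other 6 in a few abundant noncoding RNAs, which are named here after their values were seen. RN7SL2, an RNA of the signal recognition particle, had 2954, 2221, 2663 and 2753 in low glucose and 2155, 2302, 127 and 102 in high glucose normalized reads. RN7SK, a nuclear RNA that regulates transcription elongation, had 249, 201, 213 and 184 in low glucose and 216, 184, 24.04 and 35.4 in high glucose. MALAT1 and MT-RNR1, a mitochondrial ribosomal RNA, were also lower in those 2 libraries than in the other 6, at 2832 and 2609.7, and at 4934 and 5033. In MDA-MB-231, all 8 libraries had RN7SL2 at 159 to 295. List counts of 3 or more are therefore also given with high glucose libraries 3 and 4 left out where this moved them by over 1.5 times.

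**Figure D1:**
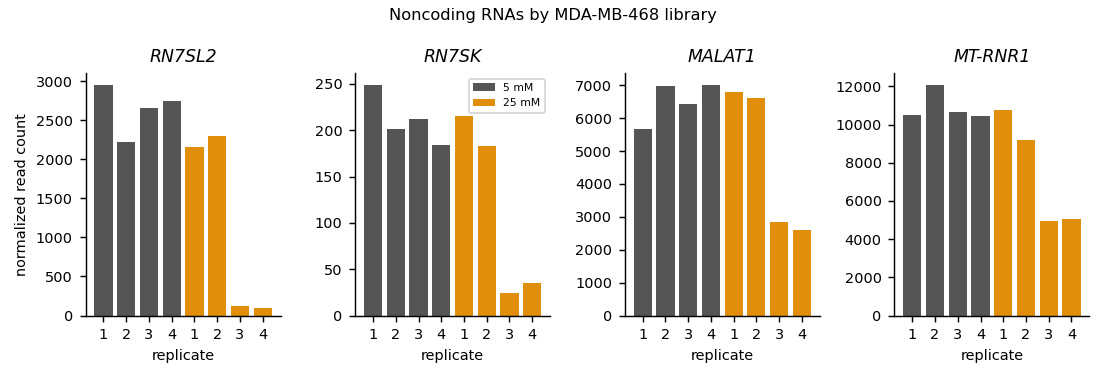
Normalized read counts of RN7SL2, RN7SK, MALAT1 and MT-RNR1 (y axes, starting at 0) in each MDA-MB-468 library, grey for 5 mM and orange for 25 mM glucose, with the replicate number on the x axis. High glucose libraries 3 and 4 are the lowest of the 8 for each of the 4 RNAs, with RN7SL2 at 127 and 102.

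With limma on log2(normalized read count + 1) and Benjamini-Hochberg adjustment over all genes tested, 7495 of 15757 genes (47.6%) passed the threshold of 0.05 on the adjusted p. In high glucose 3925 of them were higher (24.9% of all tested) and 3570 lower (22.7%). Most differences were small: the called genes had a median absolute log2 fold change of 0.32, and 571 (3.62%) changed by at least 1 on the log2 scale, 248 upward and 323 downward. These shares are the background for every list that follows. The labels do not say whether the replicates were separate cultures, so the p-values measure only the spread between these libraries. Called genes that fell had longer transcripts than those that rose, with medians of 4114.5 and 2712 bases. Across 15243 genes the Spearman correlation of length with the log2 fold change was -0.14, -0.11 without high glucose libraries 3 and 4 and -0.18 without libraries 1 and 2. List counts were therefore repeated after a smooth correction of each library for transcript length. The GC content of the transcripts was also correlated with the log2 fold change (Spearman 0.17). A correction for GC content was fitted too, but its list counts are not given here.

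**Figure D2:**
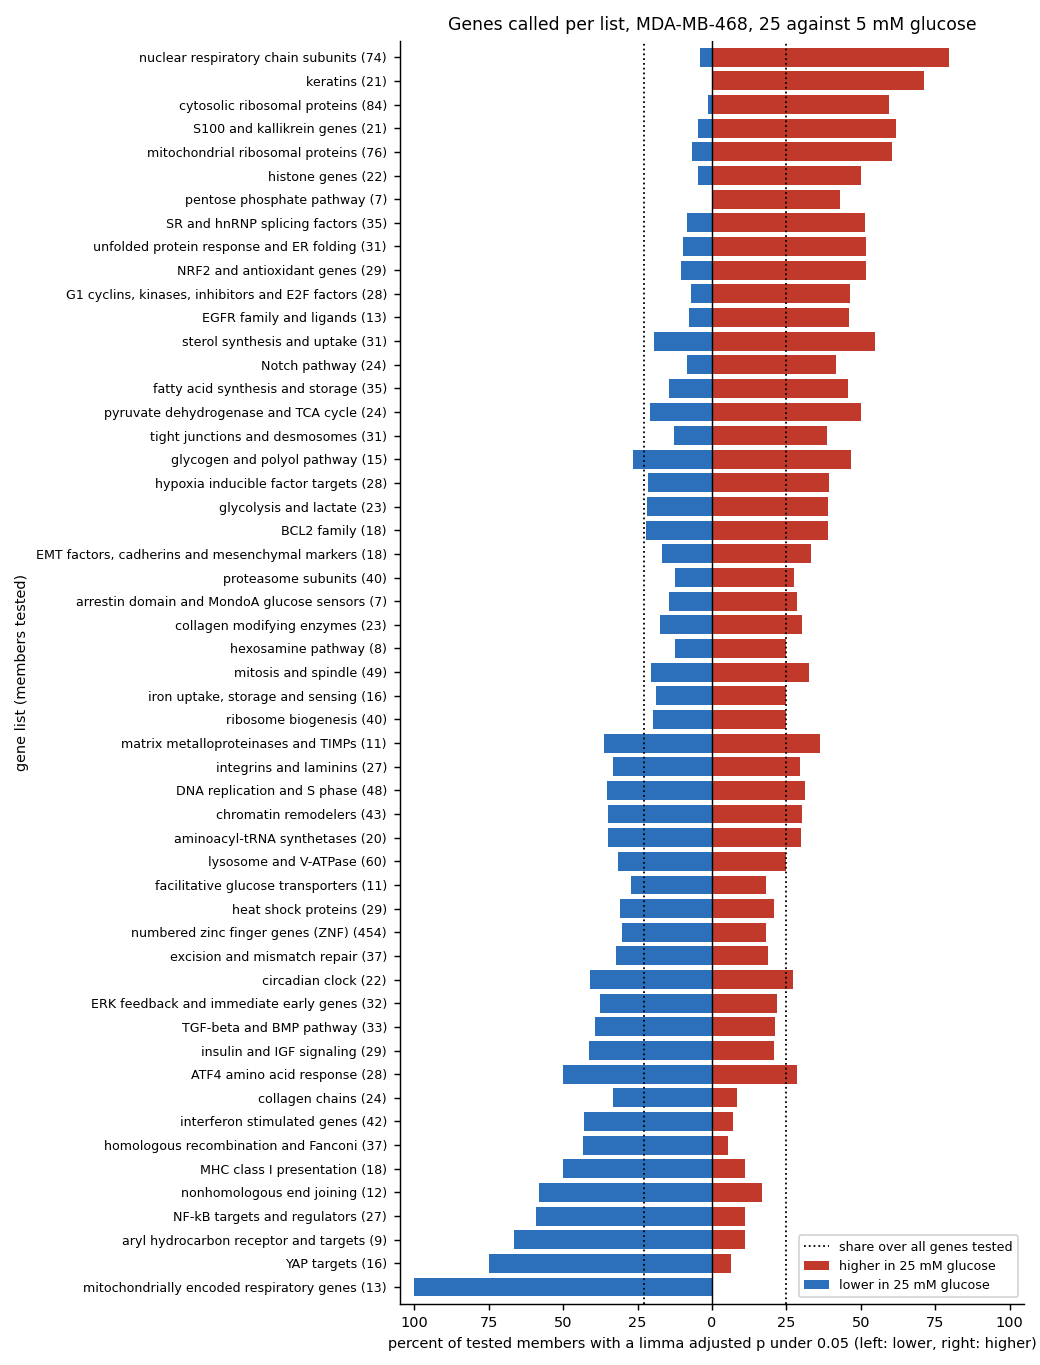
Percent of the tested members of 53 gene lists (y axis, number tested in parentheses) with a limma adjusted p under 0.05 in MDA-MB-468, drawn to the right in red if higher and to the left in blue if lower in 25 mM glucose. Dotted lines mark the shares over all genes tested, 24.9% higher and 22.7% lower. Nuclear respiratory chain subunits and keratins reach furthest right, mitochondrially encoded respiratory genes and YAP targets furthest left.

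Genes of the NF-kB pathway fell in high glucose. NF-kB factors are held in the cytoplasm by inhibitors and, when released, switch on chemokines, survival genes and their own feedback inhibitors. Of 27 targets and regulators tested, 16 were lower (22.7% of all genes were) and 3 higher, with a median log2 fold change of -0.28 beside 0.00 over all genes. CXCL8, the neutrophil chemokine interleukin-8, had 68.8, 69.7, 54.3 and 52.99 in low glucose and 26.2, 19.7, 16.02 and 21.1 in high glucose normalized reads. No high glucose value of CXCL8 reached a low glucose one, which was so for 20.4% of all genes in this direction (log2 fold change -1.53 ± 0.19, limma adjusted p = 6.52e-06). BIRC3, an inhibitor of apoptosis, fell from 1067 ± 49.2 to 406 ± 34.5 (mean ± SD of 4 replicates, as in all pairs of means that follow, log2 fold change -1.39 ± 0.06, limma adjusted p = 4.09e-11), and TNFAIP3, the feedback inhibitor A20, fell from 166 ± 18.7 to 71.4 ± 2.91. The 3 members that rose included PLAU, the urokinase that activates plasminogen (log2 fold change 0.45), and NFKBIZ, an atypical nuclear inhibitor (0.32).

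The promoters of CXCL8 and NFKBIZ are shown because both hold the same NF-kB type motif while their transcripts moved in opposite directions. Each line is the 250 bases before the annotated gene start on the coding strand, from RefSeq (GRCh38.p14), with capitals at each match to GGAATTTCC on either strand. CXCL8 lies at chr4:73740319-73740568 (plus strand) and NFKBIZ at chr3:101827740-101827989 (plus strand).
CXCL8: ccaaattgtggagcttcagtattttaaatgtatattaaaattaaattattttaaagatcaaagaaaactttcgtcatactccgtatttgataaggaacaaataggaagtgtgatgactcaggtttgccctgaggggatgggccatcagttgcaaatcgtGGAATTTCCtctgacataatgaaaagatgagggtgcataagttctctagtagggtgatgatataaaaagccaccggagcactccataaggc
NFKBIZ: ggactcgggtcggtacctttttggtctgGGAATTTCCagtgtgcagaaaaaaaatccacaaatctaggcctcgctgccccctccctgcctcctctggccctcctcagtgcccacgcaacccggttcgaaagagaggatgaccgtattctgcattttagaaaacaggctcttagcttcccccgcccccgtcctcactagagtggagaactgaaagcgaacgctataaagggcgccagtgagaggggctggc
The match starts 91 bases before the gene start in CXCL8 and 222 bases before it in NFKBIZ. Of 35116 promoters of this length, 0.413% held such a match. Of the 22 NF-kB list members with a promoter sequence, 8 held it, and 6 of these 8 were lower in high glucose, compared with 7 of the 14 without it. A match is a description of the reference sequence and does not show binding.

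Interferon stimulated genes fell as well. These genes are driven by STAT and IRF factors and encode antiviral effectors and RNA sensors. Of 42 tested, 18 were lower and 3 higher (median -0.32). IFIT1, which binds viral RNA that lacks a proper cap, had 84.6, 99.5, 84.02 and 76.3 in low glucose and 27.2, 26.2, 32.05 and 37.1 in high glucose normalized reads, and the groups did not overlap (log2 fold change -1.47 ± 0.16, limma adjusted p = 1.07e-06). HERC5, the ligase that attaches ISG15 to proteins, fell from 118 ± 13.4 to 62.5 ± 4.22. GBP2, a guanylate binding protein, was among the 3 that rose (log2 fold change 0.50). The share that fell was 42.9% in this list and 59.3% in the NF-kB list, beside 22.7% of all genes.

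IFIT1 and HERC5 are shown for the motif of the interferon-stimulated response element, searched as GAAA, any 2 bases and GAAA again, on both strands, and set in capitals (here as its reverse complement), in the same 250 bases before the gene start. IFIT1 lies at chr10:89392373-89392622 (plus strand) and HERC5 at chr4:88456869-88457118 (plus strand).
IFIT1: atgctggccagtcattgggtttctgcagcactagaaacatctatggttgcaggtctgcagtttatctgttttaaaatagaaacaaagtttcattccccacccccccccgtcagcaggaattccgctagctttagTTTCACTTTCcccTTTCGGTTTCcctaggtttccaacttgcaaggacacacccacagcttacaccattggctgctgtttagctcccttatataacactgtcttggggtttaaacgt
HERC5: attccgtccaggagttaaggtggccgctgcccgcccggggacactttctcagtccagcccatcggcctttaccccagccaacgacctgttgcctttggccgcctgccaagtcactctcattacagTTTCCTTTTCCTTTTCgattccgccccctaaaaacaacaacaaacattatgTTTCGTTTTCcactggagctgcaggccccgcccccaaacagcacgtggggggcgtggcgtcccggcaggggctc
IFIT1 held 2 matches, starting 116 and 103 bases before the gene start. HERC5 held 3, of which 2 overlap. The motif was found in 3.02% of the 35116 promoters and in 19 of 33 list members with a promoter sequence. Of those 19, 10 were lower in high glucose, as were 7 of the 14 without it.

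Antigen presentation by MHC class I followed the same direction, with 9 of 18 genes lower and 2 higher (median -0.17). HLA-B, a classical presenting molecule, had 4717, 4335, 4648 and 4354 in low glucose and 2963, 2727, 2924 and 2949 in high glucose normalized reads (log2 fold change -0.64 ± 0.04, limma adjusted p = 9.38e-10). HLA-F, a nonclassical one, fell from 713 ± 59.03 to 439 ± 32.3. HLA genes share sequence, so reads may be split between them in a way that the deposited counts do not show. The 2 members that rose, CALR and PDIA3, are general chaperones of the endoplasmic reticulum (log2 fold changes 0.23 and 0.13).

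The aryl hydrocarbon receptor binds planar aromatic ligands and switches on xenobiotic enzymes. Of 9 genes of this pathway tested, 6 fell and 1 rose (median -0.46). CYP1A1, the receptor's most inducible target enzyme (chr15:75011883-75017877 on GRCh37), had 389, 388, 401 and 387 in low glucose and 57.4, 57.9, 68.7 and 59.8 in high glucose normalized reads, a 6.42-fold lower mean in high glucose (log2 fold change -2.67 ± 0.09, limma adjusted p = 2.91e-12). Its 4 values in each group were tight and far apart. CYP1B1, a related oxidase, fell from 3432 ± 145 to 2257 ± 52.1, and ALDH3A1, an aldehyde dehydrogenase, fell from 188 ± 9.11 to 99.4 ± 17.6. NQO1, a quinone reductase that is also a target of NRF2, was the member that rose, from 1749.8 ± 73.5 to 2619.7 ± 73.2 (log2 fold change 0.58).

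The CYP1A1 promoter (chr15:74725529-74725778, minus strand, GRCh38.p14) is shown with the receptor's core motif GCGTG in capitals.
CYP1A1: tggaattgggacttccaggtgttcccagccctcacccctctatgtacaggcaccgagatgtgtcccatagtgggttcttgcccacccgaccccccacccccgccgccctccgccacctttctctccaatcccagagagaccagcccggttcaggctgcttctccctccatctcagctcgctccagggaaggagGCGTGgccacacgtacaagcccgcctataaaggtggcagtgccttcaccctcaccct
The match starts 57 bases before the gene start. The core is short, and 32.2% of all promoters of this length hold it on one strand or the other.

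Targets of YAP, the transcriptional coactivator of the Hippo pathway that responds to cell density and tension, also fell, 12 of 16 with 1 higher (median -0.49). ANKRD1, a nuclear ankyrin repeat protein, had 167, 200.2, 191 and 154 in low glucose and 84.6, 79.7, 74.4 and 71.6 in high glucose normalized reads without overlap (log2 fold change -1.18 ± 0.11, limma adjusted p = 1.81e-07). CCN2, the matricellular connective tissue growth factor, fell from 1087 ± 20.2 to 698 ± 33.6 (log2 fold change -0.64).

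**Figure D3:**
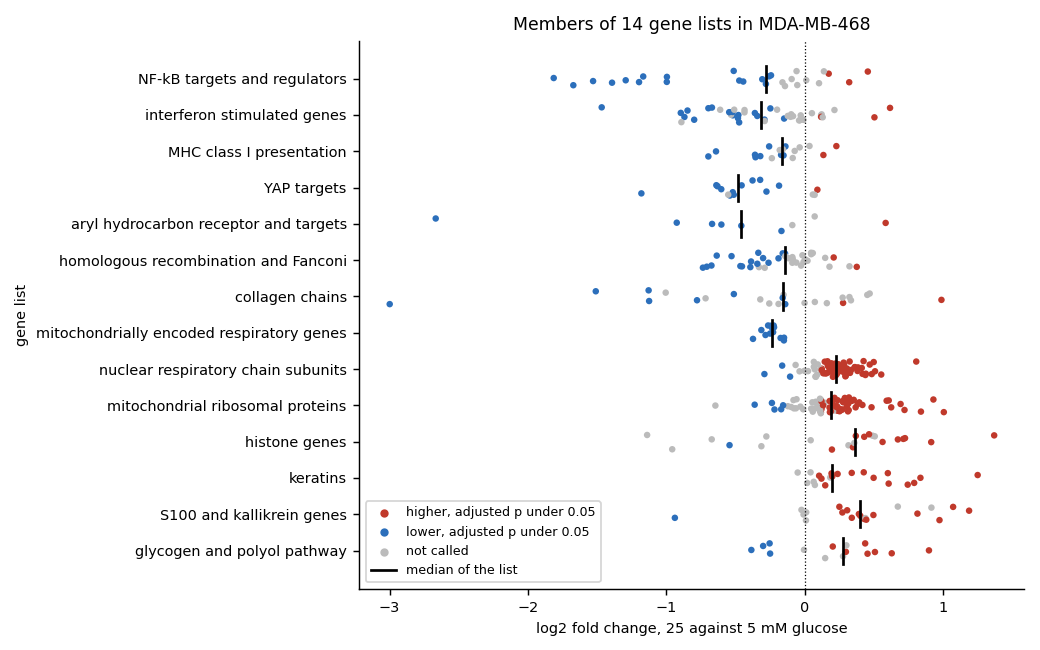
Log2 fold change (x axis, 25 against 5 mM glucose in MDA-MB-468) of each tested member of 14 gene lists (y axis), red or blue where the limma adjusted p was under 0.05 and grey where it was not, with a black bar at the list's median. The NF-kB, interferon, YAP and aryl hydrocarbon receptor lists have medians from -0.49 to -0.28, and the S100 and kallikrein list has 0.40.

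More keratin, S100 and kallikrein genes rose than fell. Keratins form the intermediate filaments of epithelial cells, and kallikreins are secreted serine peptidases that cleave junctions of the outer skin layers. Of 21 keratins tested, 15 were higher (24.9% of all genes were) and 0 lower at this threshold (median 0.20). With high glucose libraries 3 and 4 left out, 10 keratins were higher. KRT6B, a keratin of activated and hyperproliferative epithelium, had 429, 448, 424 and 430.2 in low glucose and 1004, 969, 1109 and 1038 in high glucose normalized reads (log2 fold change 1.25 ± 0.05, limma adjusted p = 1.62e-11). KRT15, a basal keratin, rose from 2399 ± 113 to 4275 ± 166. The rise was not limited to keratins of stratified epithelium. KRT8, KRT18 and KRT19, given above among the luminal markers, rose by 0.20, 0.12 and 0.50 on the log2 scale. The call of KRT18 was lost in 4 of 25 alternatives. Of the basal markers, KRT17 was not called (0.07) and the cadherin CDH3 fell (-0.15). Keratin genes lie in clusters of close relatives, among them KRT6A beside KRT6B, and reads shared between them cannot be told apart in these counts.

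Of 21 S100 and kallikrein genes, 13 rose and 1 fell (median 0.40). KLK5, which activates other kallikreins, had 3161, 2999, 3095 and 2873 in low glucose and 6316, 6021, 6546 and 6579 in high glucose normalized reads (log2 fold change 1.07 ± 0.04, limma adjusted p = 3.83e-12), and KLK6 had 1019, 973, 1070.4 and 999.7 in low glucose and 2299, 2197, 2335 and 2409.9 in high glucose (log2 fold change 1.19 ± 0.04, limma adjusted p = 3.83e-12). The ratios of the high to the low glucose means were 2.099 and 2.27, and neither gene's groups overlapped. In tight junctions and desmosomes 12 of 31 genes rose and 4 fell. CLDN1, a barrier-forming claudin, rose from 349 ± 15.9 to 698 ± 31.1 (limma adjusted p = 4.75e-10), and CLDN8, another claudin, by 0.65 on the log2 scale. Of 18 genes for the epithelial-mesenchymal transition, cadherins and mesenchymal markers, 6 rose and 3 fell, shares of 33.3% and 16.7%, and 1 fell without high glucose libraries 3 and 4. The largest rise that met the naming rule in that list was TGFBI, a matrix protein induced by TGF-beta, from 82.9 ± 7.27 to 167 ± 11.98 (log2 fold change 1.004).

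Matrix genes were counted by role. Of 24 collagen chains, 8 fell and 2 rose (median -0.16). COL5A2, a chain of fibril-nucleating type V collagen (chr2:189896624-190090038 on GRCh37), had 721, 711, 646 and 689.8 in low glucose and 90.4, 84.1, 75.5 and 93.6 in high glucose normalized reads, a mean 8.06 times lower in high glucose and the largest fall among the named genes (log2 fold change -3.00 ± 0.08, limma adjusted p = 2.99e-13). COL4A6, a basement membrane chain, fell from 109 ± 10.9 to 49.4 ± 6.75. Of the collagen modifying enzymes, 7 of 23 rose and 4 fell. P3H4, a scaffold of the collagen lysyl hydroxylase complex, had 23.7, 28.8, 13.1 and 23.4 in low glucose and 88.5, 89.6, 106 and 84.3 in high glucose normalized reads (log2 fold change 2.05 ± 0.21, limma adjusted p = 5.05e-07), and SERPINH1, the collagen chaperone HSP47, rose by 0.48 on the log2 scale. Of 27 integrins and laminins, 8 rose and 9 fell, LAMA4 (-0.63) among the latter, and after length correction 9 rose and 7 fell. Of 11 matrix metalloproteinases and their inhibitors 4 rose and 4 fell, and 2 rose without high glucose libraries 3 and 4. Those that fell included MMP7, the epithelial matrilysin, from 3904 ± 32.1 to 2247 ± 131, and TIMP2, an inhibitor, from 2618 ± 60.9 to 1752 ± 55.6.

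Respiratory chain genes moved in opposite directions by genome. All 13 of the 13 protein genes encoded in mitochondrial DNA fell, between -0.15 and -0.38 on the log2 scale (median -0.24). Of 74 nuclear genes for subunits of the same complexes, 59 rose and 3 fell (median 0.23), and after length correction 49 rose and 5 fell. MT-ND4L, a complex I subunit encoded in mitochondria, had 4671, 5082, 4396 and 5386 in low glucose and 3498, 4122, 3447 and 3994 in high glucose normalized reads (log2 fold change -0.38 ± 0.06, limma adjusted p = 9.7e-05). NDUFA5, a nuclear subunit of the same complex, had 463, 504, 433 and 445 in low glucose and 852, 757, 826 and 786 in high glucose (log2 fold change 0.80 ± 0.06, limma adjusted p = 8.62e-09). NDUFS1, the largest nuclear subunit of complex I, was among the 3 that fell (-0.29). Without high glucose libraries 3 and 4, which were also the lowest in MT-RNR1, 12 mitochondrial genes fell and the median was -0.24. MT-RNR1 itself fell with all libraries (log2 fold change -0.63), and showed -0.13 without those 2 (limma adjusted p = 0.0862). The other mitochondrial ribosomal RNA, MT-RNR2, had 75549, 85075, 74716 and 83004 in low glucose and 48315, 48158, 42108 and 45652 in high glucose normalized reads, without overlap, and fell both with all libraries (log2 fold change -0.79 ± 0.05, limma adjusted p = 1.1e-09) and without those 2 (-0.72, limma adjusted p = 6.38e-09).

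Mitochondrial ribosomal proteins, which translate those mitochondrial messages, rose in 46 of 76 and fell in 5 (median 0.19), and after length correction the counts were 35 and 10. MRPL54 rose from 119 ± 6.58 to 239 ± 22.9 (log2 fold change 1.003 ± 0.09, limma adjusted p = 1.17e-07), MRPS2 by 0.93 and MRPL34 fell (-0.36). UQCC3, an assembly factor of complex III, had 123, 102, 101 and 111 in low glucose and 366, 314, 441 and 421 in high glucose normalized reads, a 3.53-fold higher mean in high glucose (log2 fold change 1.80 ± 0.10, limma adjusted p = 8.95e-10). For cytosolic ribosomal proteins 50 of 84 rose and 1 fell, by little (median 0.10). That count was less stable than the others. After length correction 18 rose and 11 fell, with quantile normalization 30 rose and 7 fell, and without high glucose libraries 3 and 4 24 rose and 0 fell. The transcripts of this list are short, with a median of 827 bases. Their 2 largest rises were RPS27L (0.77), a paralog of the small subunit protein RPS27, and RPL10 (0.62), while RPL23 fell by 0.07. Of 40 ribosome biogenesis genes 10 rose and 8 fell. That majority turned with the setting, to 5 up and 6 down without high glucose libraries 3 and 4 and to 5 up and 10 down after length correction, and 5 rose without high glucose library 4 alone and 6 without low glucose library 3. Of 20 aminoacyl-tRNA synthetases 6 rose and 7 fell.

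Genes for the entry and use of glucose itself changed in both directions. Of 7 arrestin domain genes and MondoA glucose sensors tested, 2 rose and 1 fell. The one that fell was ARRDC4, an arrestin that MondoA induces when glucose phosphates build up in cells, with 43.5, 59.7, 51.6 and 48.5 in low glucose and 23.3, 22.9, 16.02 and 21.9 in high glucose normalized reads (log2 fold change -1.24 ± 0.19, limma adjusted p = 5.65e-05). TXNIP, its best known relative, is not analysed here. Of 11 facilitative transporters 2 rose and 3 fell, with SLC2A10 up from 133 ± 10.1 to 254 ± 31.7. The transporter with the largest change, picked after its values were seen and under the level set for named genes, was SLC2A3, the high-affinity GLUT3, with 21.4, 27.6, 24.5 and 20.7 in low glucose and 6.81, 1.09, 2.29 and 4.21 in high glucose normalized reads, and it fell (log2 fold change -2.58 ± 0.41, limma adjusted p = 7.02e-05). Its near-identical relative SLC2A14 may share its reads. In high glucose libraries 2 and 3, where 1 read equals 1.09 and 1.14, SLC2A3 lay under the floor of 3 reads. The size of its fall is therefore uncertain. In glycolysis and lactate handling 9 of 23 genes rose and 5 fell. HK1, the hexokinase that traps glucose in the cell, had 3179, 3184, 3129.9 and 3234 in low glucose and 4207, 4131, 4303 and 4327 in high glucose normalized reads (log2 fold change 0.41 ± 0.03, limma adjusted p = 7.79e-09). PFKFB3, which makes the activator of phosphofructokinase, rose from 469 ± 15.7 to 641 ± 29.8, and ENO2, an enolase, fell (-0.48).

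Branches from glycolysis were also mixed. PGM1, which links glucose-1-phosphate of glycogen to glycolysis, had 1571, 1606, 1615 and 1491 in low glucose and 2869.8, 2840.2, 3014 and 2964 in high glucose normalized reads (log2 fold change 0.90 ± 0.04, limma adjusted p = 1.68e-11). Of 15 glycogen and polyol genes, 7 rose, GYG1, the glycogen primer, among them (0.63), and 4 fell. GFPT2, an enzyme at the entry to the hexosamine pathway, fell from 90.1 ± 3.397 to 42.2 ± 10.8 (log2 fold change -1.11 ± 0.17, limma adjusted p = 4.18e-05), and UAP1, which makes the pathway's end product, rose (0.41). In all 2 hexosamine genes rose and 1 fell of 8. Of 7 pentose phosphate genes 3 rose, among them the transketolase TKT (0.26), and 0 fell. Of 24 genes of pyruvate dehydrogenase and the tricarboxylic acid cycle 12 rose and 5 fell, with SUCLG1 (0.75) and FH (0.51), both cycle enzymes, the largest rises named.

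**Figure D4:**
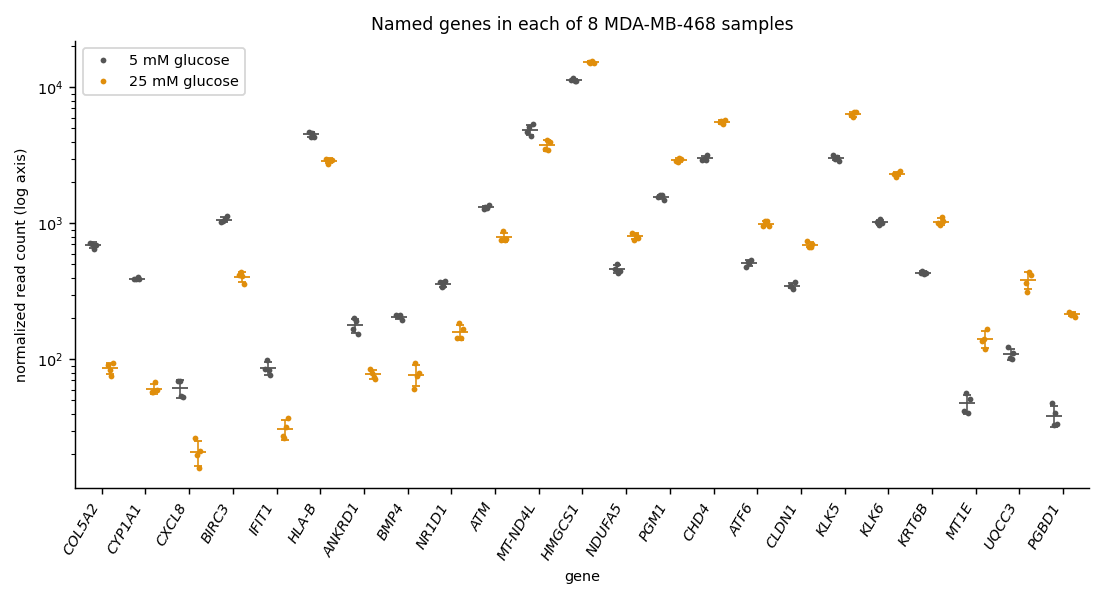
Normalized read count (log y axis) of 23 named genes (x axis) in the 4 low glucose (grey) and 4 high glucose (orange) MDA-MB-468 samples, each point a sample, with the mean as a horizontal mark and error bars of 1 SD. In each of the 23 genes the 2 groups do not overlap, which the naming rule required of most of them and which held for 42.5% of all genes tested, as for COL5A2 at 646 or more against 93.6 or less.

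In both lists of lipid synthesis the genes that rose outnumbered those that fell. Of 31 sterol synthesis and uptake genes 17 rose and 6 fell (median 0.12), and of 35 fatty acid synthesis and storage genes 16 rose and 5 fell (median 0.10). HMGCS1, the synthase that starts the sterol pathway, had 11241, 11742, 11169.8 and 11202 in low glucose and 15398, 15052, 15623 and 15072 in high glucose normalized reads (log2 fold change 0.43 ± 0.03, limma adjusted p = 2.05e-09). FDPS, a later enzyme of the pathway, fell (-0.40). FASN, the fatty acid synthase, rose from 35450.5 ± 1801 to 48754 ± 2010.3 (log2 fold change 0.46), and GPAM, which starts glycerolipid synthesis, fell (-0.62).

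Stress programs differed by arm. ATF4 is made when amino acids are short or the endoplasmic reticulum is stressed, and of 28 of its amino acid response genes 14 fell and 8 rose (median -0.11). CTH, which makes cysteine from cystathionine, had 341, 313, 356 and 296 in low glucose and 158, 170.4, 152 and 147 in high glucose normalized reads (log2 fold change -1.05 ± 0.08, limma adjusted p = 1.92e-08), and DDIT3, the stress factor CHOP, fell from 180.2 ± 8.21 to 104 ± 11.7. The folding arm went up, with 16 of 31 genes higher and 3 lower (median 0.12), and 5 lower without high glucose libraries 3 and 4 or after length correction. ATF6, a membrane-bound sensor that is cleaved under folding stress, had 476, 524, 509 and 534 in low glucose and 962, 1037, 1043 and 951 in high glucose normalized reads (log2 fold change 0.97 ± 0.05, limma adjusted p = 3.52e-10). HSPA5, the luminal chaperone BiP, rose from 5751 ± 127 to 6733 ± 118 and SDF2L1, a cofactor of BiP, by 0.59 on the log2 scale. Among 29 heat shock proteins 6 rose and 9 fell, and the small ones CRYAB (1.03) and HSPB1 (0.75) led the rises. After length correction 14 heat shock genes were lower.

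NRF2 and antioxidant genes rose in 15 of 29 and fell in 3 (median 0.11), and fell in 7 after length correction. The largest named rises were the metal binding metallothioneins MT1E, with 41.9, 56.4, 40.3 and 51.2 in low glucose and 137, 142, 119 and 167 in high glucose normalized reads (log2 fold change 1.56 ± 0.14, limma adjusted p = 1.51e-07), and MT1X (0.86), which share sequence with other MT1 genes. Targets of the hypoxia inducible factor were mixed, 11 of 28 up and 6 down, with NDRG1 up (0.55) and EGLN3, an oxygen-sensing hydroxylase, down (-0.67). The proteasome (11 up, 5 down of 40), lysosome and V-ATPase (15 up, 19 down of 60) and iron lists (4 up, 3 down of 16) had medians of 0.01, -0.04 and 0.01. With length correction the proteasome count of lower genes became 12.

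Mitosis and replication genes showed no shared direction in MDA-MB-468, whereas more G1 and histone genes rose than fell. Mitosis and spindle genes had 16 up and 10 down of 49 (median 0.02), and DNA replication genes 15 up and 17 down of 48 (median -0.01). Single genes moved clearly both ways. BIRC5, the spindle protein survivin, rose from 1054 ± 52.1 to 1876 ± 109.8 (log2 fold change 0.83 ± 0.05, limma adjusted p = 7.89e-10) and PLK1, a mitotic kinase, by 0.71, while HMMR, a spindle and hyaluronan binding protein, fell (-0.70). POLD2, a subunit of the replicative polymerase delta, rose (0.59). Of 28 G1 cyclins, kinases, inhibitors and E2F factors 13 rose and 2 fell. CDKN1A, the kinase inhibitor p21, had 597, 488, 556 and 547 in low glucose and 926, 922, 1076 and 961 in high glucose normalized reads (log2 fold change 0.83 ± 0.06, limma adjusted p = 1.97e-08), whereas CDKN2D, the inhibitor p19, had 1026, 939, 1080.05 and 1046 in low glucose and 444, 435, 564 and 502 in high glucose (log2 fold change -1.08 ± 0.07, limma adjusted p = 4.64e-09). Histone genes rose in 11 of 22 and fell in 1 (median 0.36), led among named genes by H2BC5 (0.91) and H2AC6 (0.72), which belong to clusters of near-identical copies.

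DNA repair genes were counted by pathway. Homologous recombination and the Fanconi pathway repair double-strand breaks and crosslinks with an intact template, and 16 of 37 of their genes fell while 2 rose (median -0.14, length-corrected -0.12). ATM, the kinase that signals double-strand breaks, had 1283, 1325, 1294 and 1359 in low glucose and 756, 877, 759.97 and 766 in high glucose normalized reads (log2 fold change -0.74 ± 0.05, limma adjusted p = 4.55e-09). BRCA2, a mediator of homologous recombination, fell from 572 ± 13.3 to 352 ± 53.1 (log2 fold change -0.71 ± 0.08, limma adjusted p = 1.74e-06). For nonhomologous end joining, which rejoins ends without a template, 7 of 12 fell and 2 rose, and after length correction 5 fell and 1 rose. Excision and mismatch repair had 12 lower and 7 higher of 37, with a median of 0.00. ERCC1, a subunit of the nuclease that cuts out bulky lesions, rose from 709.7 ± 20.6 to 1123 ± 41.4.

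Growth factor pathways differed in the direction of their counts. Of 13 genes of the EGFR family and its ligands 6 rose and 1 fell (median 0.15), but 3 rose without high glucose libraries 3 and 4, and as many without library 3 alone. EGFR itself was the one lower, by 0.08 on the log2 scale (limma adjusted p = 0.0329), with overlapping groups, and it lay at 0.0104 after length correction. ERK feedback and immediate early genes fell in 12 of 32 and rose in 7 (median -0.17), and 4 rose without high glucose libraries 3 and 4. In the TGF-beta and BMP pathway 13 of 33 fell and 7 rose. BMP4, a secreted differentiation factor, had 210.4, 207, 212 and 194 in low glucose and 60.3, 93.9, 75.5 and 79.2 in high glucose normalized reads (log2 fold change -1.42 ± 0.12, limma adjusted p = 5.97e-08), while the ligand TGFB1 rose from 465 ± 33.9 to 688 ± 57.1. In the Notch pathway 10 of 24 rose and 2 fell, and HES2, a repressor of the HES family, rose from 35.7 ± 4.37 to 95.9 ± 14.8 (log2 fold change 1.40 ± 0.15, limma adjusted p = 1.23e-06). Insulin and IGF signaling had 12 lower and 6 higher of 29, though the list's median was 0.06, and length correction turned the counts to 7 lower and 9 higher. IRS1, the adaptor of the insulin and IGF receptors, had 1554, 1481, 1642 and 1588 in low glucose and 959.5, 945, 977 and 904 in high glucose normalized reads (log2 fold change -0.73 ± 0.04, limma adjusted p = 8.79e-10), and PIK3R1, a regulatory subunit of the kinase it recruits, rose (0.57).

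Of 18 BCL2 family genes 7 rose and 4 fell, with the death promoters HRK (0.69) and PMAIP1 (-0.60) at the ends. Of 22 circadian clock genes 9 fell and 6 rose. NR1D1, the clock repressor that also senses heme, had 370.1, 338, 346 and 379.9 in low glucose and 143, 185, 143 and 169 in high glucose normalized reads (log2 fold change -1.17 ± 0.09, limma adjusted p = 1.73e-08), and PER1, another clock repressor, fell (-0.57).

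Among nuclear regulators, chromatin remodelers had 13 up and 15 down of 43, and 17 up and 10 down after length correction. CHD4, the motor of the NuRD complex, had 2939, 2974, 2935 and 3179.6 in low glucose and 5554, 5653, 5345 and 5724 in high glucose normalized reads (log2 fold change 0.89 ± 0.03, limma adjusted p = 1.07e-11), and SSRP1, a histone chaperone of the FACT complex, rose from 4655 ± 27.97 to 8579 ± 276. SR and hnRNP splicing factors rose in 18 of 35 and fell in 3 (median 0.09). Of 454 numbered zinc finger genes, most of them DNA binding repressors, 138 (30.4%) fell and 83 (18.3%) rose. On chromosome 19, where many of them lie in clusters, 76 of 232 fell and 28 rose, and on the other chromosomes 62 of 222 fell and 55 rose. ZNF221 fell from 222 ± 26.9 to 95.6 ± 35.6. ZNF460 fell as a mean (-1.25), but its values were 524, 497, 553 and 596 in low glucose and 415, 464, 109 and 127 in high glucose, with high glucose libraries 3 and 4 apart from 1 and 2.

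The genes with the largest changes that met the naming rule, no overlap between the groups and a mean of 5 CPM or more in the higher one, belonged to few of these lists. Among the 10 largest falls were, besides COL5A2 and CYP1A1, OLR1, a scavenger receptor for oxidized lipoprotein, from 195 ± 15.5 to 30.01 ± 2.903 (log2 fold change -2.66 ± 0.12, limma adjusted p = 8.91e-11), GREB1, a gene best known as an estrogen target, from 135 ± 6.91 to 25.8 ± 4.403, and GALR2, a galanin receptor, from 94.01 ± 13.5 to 18.8 ± 2.22. MAPK8IP2, AP3B2 and SYP, all known from neurons, fell from 149 ± 13.3 to 19.7 ± 4.66, from 183 ± 6.297 to 34.4 ± 7.25 and from 133 ± 1.67 to 25.2 ± 5.68. The others were the antisense transcripts FBXL19-AS1 (-2.12) and CCNT2-AS1 (-1.93), whose reads cannot be told from those of their partner genes where the counting did not use strand.

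Among the 10 largest rises of genes with a symbol (1 gene without one ranked among the 10 and was passed over), PGBD1, a gene derived from a transposase, had 47.4, 33.2, 40.3 and 33.2 in low glucose and 224, 213, 216 and 207 in high glucose normalized reads (log2 fold change 2.46 ± 0.13, limma adjusted p = 2.75e-10), and its neighbor on chromosome 6, ZSCAN26, rose from 34.8 ± 4.46 to 132 ± 10.8. SOBP, a zinc finger protein, rose from 17.001 ± 2.503 to 85.99 ± 9.26 and ZNF22 from 76.5 ± 10.8 to 310.1 ± 24.2. GAMT, which makes creatine, rose from 34.2 ± 3.92 to 136 ± 20.4, and CLCA2, a chloride channel regulator of basal epithelium, from 30.9 ± 4.64 to 123 ± 7.96. R3HCC1 (2.04), EEF1AKMT2, a methyltransferase of elongation factor 1A (1.89), and P3H4 and UQCC3, given above, completed the rises.

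The response was set against that of MDA-MB-231 by the interaction contrast over all 16 samples, in which 2909 of 17115 genes (17.0%) responded more positively in MDA-MB-468 and 2379 (13.9%) more negatively. Of 32 NF-kB genes 15 responded more negatively in MDA-MB-468 and 4 more positively, and of 43 interferon stimulated genes 19 and 2. ATF4 targets were lower by the same contrast in 18 of 28 and higher in 0. Of 49 mitosis genes 42 responded more positively, as did 32 of 48 replication genes, 40 of 74 nuclear respiratory chain genes and 21 of 35 splicing factors. In MDA-MB-231, where 5.71% of all genes rose and 9.37% fell, 48 of 49 mitosis genes and 39 of 48 replication genes fell. For the 13 mitochondrially encoded genes 1 difference between the lines was called. CYP1B1 and CCN2 fell in both lines, with differences between the lines of -0.08 and -0.10 on the log2 scale that did not pass the threshold (limma adjusted p = 0.327 and 0.0842).

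**Figure D5:**
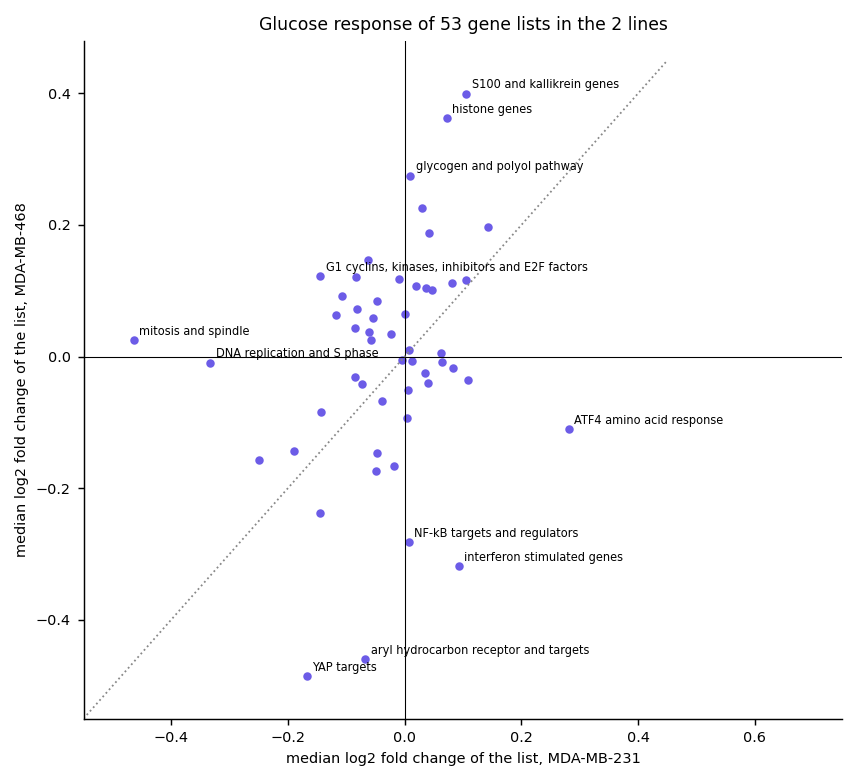
Median log2 fold change, 25 against 5 mM glucose, of each of 53 gene lists in MDA-MB-231 (x axis) and MDA-MB-468 (y axis), with solid lines at 0 and a dotted line where both are equal. The mitosis list lies at -0.46 and 0.02, the ATF4 list at 0.28 and -0.11, and the YAP list is below 0 in both.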

How the data were processed

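RNA of both lines was sequenced by the authors. The methods describe trimming and alignment to hg19 with TopHat in a passage that opens with human tumors, while the submitters' processing notes name hg38 and edgeR. Which applies to these libraries, and whether they kept strand, is not given in the sources used here. Each deposited value is a signal, the reads of a gene divided by a factor for its library. In every library 100% of them were whole multiples of 1 step (tolerance 0.001, largest deviation 5.82e-05), so whole reads could be recovered. Of 18332 Ensembl IDs, 16633 had a symbol in a GENCODE annotation on GRCh37, which also gave transcript lengths.

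Groups came from the labels. The tests used limma 3.58.1 (R 4.3.3), lmFit and eBayes with trend, two-sided, on log2(value + 1), with a threshold of 0.05 on the Benjamini-Hochberg adjusted p. The pseudocount makes fold changes of low genes too small. The scripts were tested on simulated data. Alternatives included edgeR 4.0.16, which called 3846 genes higher and 3638 lower on the recovered reads, and DESeq2 1.42.0. Named genes, all with a symbol, were the 10 largest rises and falls, the 2 largest per list and direction (at least 5 CPM in the higher group, no overlap) and a few fixed genes. Some genes that this rule names are not reported here. The genes, 53 lists and tests were chosen with earlier results of these data known. The lists were given no set test.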

Additional observations from a re-analysis of the deposited data

Results flagged for a closer look

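The glucose response of 108 of 127 named genes differed between the lines by the limma interaction contrast (adjusted p under 0.05), where 30.9% of all 17115 genes did. The named genes were largely chosen for large responses in MDA-MB-468, so this share says nothing about them as a group. The values are differences of log2 fold changes, MDA-MB-468 minus MDA-MB-231. A difference does not show a response in MDA-MB-231, where some of these genes had few or no reads. KRT6B had means of 0 there in both glucose levels, so its difference is its response in MDA-MB-468 alone. Among inflammation, presentation, aryl hydrocarbon receptor and YAP genes, MDA-MB-468 responded more positively, by 0.78 for PLAU, 0.46 for GBP2, 0.38 for NFKBIZ, 0.35 for NQO1, 0.24 for CALR and 0.16 for PDIA3. Differences below 0 were -2.64 for CYP1A1, -1.64 for IFIT1, -1.56 for BIRC3, -1.12 for CXCL8, -1.01 for ANKRD1, -1.01 for TNFAIP3, -0.91 for HERC5, -0.86 for ALDH3A1 and -0.57 for HLA-B. Among matrix and epithelial genes, MDA-MB-468 responded more positively, by 2.10 for P3H4, 1.60 for KLK5, 1.42 for CLCA2, 1.25 for KRT6B, 1.24 for TGFBI, 1.19 for KLK6, 0.93 for CLDN1, 0.65 for CLDN8 and 0.56 for SERPINH1. Negative differences were -3.28 for COL5A2, -1.28 for COL4A6, -0.59 for TIMP2 and -0.48 for LAMA4. Among mitochondrial and ribosomal genes, MDA-MB-468 responded more positively, by 2.08 for UQCC3, 1.05 for MRPL54, 0.94 for MRPS2, 0.76 for NDUFA5, 0.73 for RPS27L, 0.61 for RPL10 and 0.59 for NDUFA12. Differences below 0 were -0.82 for MT-RNR2, -0.49 for MRPL34 and -0.26 for NDUFS1. Among genes of glucose, lipid and creatine metabolism, MDA-MB-468 responded more positively, by 2.04 for GAMT, 0.88 for PGM1, 0.74 for SUCLG1, 0.69 for FH, 0.68 for SLC2A10 and 0.66 for HMGCS1. Further positive differences among them were 0.65 for PFKFB3, 0.56 for FASN, 0.53 for UAP1, 0.49 for GYG1, 0.44 for HK1 and 0.26 for TKT. Negative differences were -3.29 for OLR1, -2.62 for SLC2A3, -2.29 for ARRDC4, -1.05 for GFPT2, -0.87 for GPAM and -0.30 for FDPS.

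Among stress genes, MDA-MB-468 responded more positively, by 2.30 for MT1E, 1.93 for CRYAB, 1.01 for MT1X, 0.996 for ATF6, 0.64 for HSPB1, 0.56 for NDRG1, 0.48 for SDF2L1 and 0.15 for HSPA5. Differences below 0 were -1.42 for CTH and -1.02 for DDIT3. Among cell cycle and repair genes, MDA-MB-468 responded more positively, by 1.33 for BIRC5, 1.16 for PLK1, 1.02 for CDKN1A, 0.71 for POLD2, 0.68 for ERCC1, 0.63 for H2BC5 and 0.40 for H2AC6. Negative differences were -0.84 for CDKN2D, -0.68 for ATM, -0.45 for HMMR and -0.34 for BRCA2. Among signaling and clock genes, MDA-MB-468 responded more positively, by 1.22 for HES2, 0.55 for PIK3R1 and 0.51 for TGFB1. Differences below 0 were -2.67 for GALR2, -1.87 for GREB1, -1.35 for BMP4, -1.13 for NR1D1, -0.64 for PER1, -0.63 for PMAIP1 and -0.62 for IRS1. Among nuclear regulators and other transcripts, MDA-MB-468 responded more positively, by 2.58 for PGBD1, 2.47 for SOBP, 2.18 for ZNF22, 2.07 for EEF1AKMT2 and 2.06 for R3HCC1. Further positive differences among them were 1.99 for ZSCAN26, 1.19 for ZSCAN12, 1.18 for ZKSCAN4, 1.08 for CHD4 and 1.01 for SSRP1. Negative differences were -3.18 for MAPK8IP2, -2.68 for AP3B2, -2.52 for SYP, -2.29 for FBXL19-AS1, -2.14 for SYN1 and -2.14 for CCNT2-AS1. Further negative differences among them were -1.61 for CELSR3, -1.21 for ZNF221, -1.14 for BSN, -0.99 for ZNF165 and -0.51 for ZSCAN31. In the MDA-MB-231 libraries, AP3B2 lay at 0 to 2.85, SYN1 at 0 to 4.21 and MAPK8IP2 at 4.11 to 11.1 normalized reads. CELSR3, by contrast, lay at 322 to 432 there.

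A single sample stood far from the other 3 of its group by Dixon's test in 18 of 254 groups of 4 samples, and chance flags about 1 in 20. In low glucose the highest sample was the distant one for CYP1A1 at 401, CCNT2-AS1 at 150.4, RPS27L at 98.4, HMGCS1 at 11742, CHD4 at 3179.6 and MT-RNR1 at 12080.5 normalized reads. In low glucose the lowest sample was the distant one for PLAU at 88.5, SLC2A10 at 118 and HMMR at 1714 normalized reads. In high glucose the highest sample was the distant one for TIMP2 at 1834, UAP1 at 895, ATM at 877 and EGFR at 62397 normalized reads. In high glucose the lowest sample was the distant one for GAMT at 105, ZSCAN26 at 116, HLA-B at 2727, SSRP1 at 8169.97 and RB1 at 14.3 normalized reads. RN7SL2, RN7SK and MALAT1 were split 2 against 2 in high glucose, a pattern that this test of single samples does not see.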

How the results depend on the processing

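In MDA-MB-468, leaving out each library in turn gave 3528 to 3890 genes higher and 3174 to 3501 lower, and in the comparison of lines 2697 to 2998 higher and 2179 to 2467 lower. The other alternatives tried gave 2972 to 3933 genes higher and 2547 to 3801 lower in MDA-MB-468. Low against high glucose libraries 1 and 2 alone, an alternative chosen after seeing the data, gave 3087 higher and 2946 lower, and against libraries 3 and 4 alone 3629 and 3268. Of 3150 values of named genes under the alternatives, 3100 kept their direction and their side of the threshold, and the others came from 8 genes. Most of the named genes were chosen for clear changes in these same libraries, so this share was largely set by that choice. ESR1, KRT18 and CDH3 are among the identity markers that are not counted in it. The call of CDH3 was lost in 1 of 25 alternatives. EGFR changed sign with transcript length correction (0.0104, also with the replicate block added), and MALAT1 without high glucose libraries 3 and 4 (0.0417). RPL23, ZNF460, RN7SL2, RN7SK, MT-RNR1 and PDIA3 lost significance under some alternatives. The cause was not tested. Of 742 list counts, 52 moved by over 1.5 times. Leaving out single libraries also took the lower count of mitochondrial ribosomal proteins from 5 to 3 (low glucose 2 or high glucose 3), that of the proteasome from 5 to 3 (low glucose 2, 3 or 4 or high glucose 4) and that of splicing factors from 3 to 5 (high glucose 3). The replicate numbers did not pair the samples. The correlation of deviations between same-numbered libraries was 0.017 to 0.032, though 6 of 8 libraries correlated best with their own number. With the replicate block 3855 genes were higher and 3528 lower, and in the comparison of lines 2674 and 2100. Depth limits statements on genes under about 0.2 CPM, and 4 libraries a group limit the precision of all.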

Other observations

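Genes known from neurons were frequent among the largest falls, and a list of them was written after those falls had been seen, so its counts support nothing and stand as a description. Of 38 such genes past the filter, 18 fell and 7 rose, with a median log2 fold change of -0.29, where 22.7% of all genes fell and 24.9% rose. Without high glucose libraries 3 and 4 the counts were 17 and 5, and with transcript length correction 18 and 7. SYN1, a phosphoprotein on synaptic vesicles, had 108, 90.7, 94.5 and 107 in low glucose and 28.2, 18.6, 27.5 and 38.8 in high glucose normalized reads, without overlap (log2 fold change -1.83 ± 0.19, limma adjusted p = 6.29e-07). BSN, a scaffold of the presynaptic release site, fell from 73.3 ± 17.2 to 24.6 ± 4.12, and CELSR3, a cadherin that guides axons, fell from 299.7 ± 13.6 to 97.7 ± 10.1. In MDA-MB-231, 2 of 30 such genes fell and 1 rose.

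PGBD1 and ZSCAN26, both among the 10 largest rises named, lie in a cluster of genes for SCAN domain zinc finger factors on chromosome 6, and that family was looked up after this was seen. The counts include ZSCAN26 itself, so they support nothing and stand as a description. Of 9 ZSCAN and ZKSCAN genes on chromosome 6, 6 rose and 1 fell (median 0.87). Of 14 on other chromosomes, 3 rose and 4 fell (median 0.04). PGBD1 (chr6:28249349-28270326 on GRCh37) had the largest change there. ZKSCAN4 had 56.1, 84.1, 68.3 and 51.2 in low glucose and 148, 135, 153 and 160.2 in high glucose normalized reads (log2 fold change 1.21 ± 0.14, limma adjusted p = 2.33e-06), and ZSCAN12 had 93.3, 91.8, 103 and 90.7 in low glucose and 158, 232, 211 and 199.8 in high glucose (log2 fold change 1.06 ± 0.11, limma adjusted p = 8.33e-07). The cluster did not move as a whole. ZSCAN31, which lies between members that rose, fell from 743 ± 44.9 to 571 ± 34.3, and ZNF165, at the edge of the cluster, fell from 508 ± 25.7 to 256 ± 16.1. Without high glucose libraries 3 and 4 the chromosome 6 genes had 6 higher and 1 lower, and in MDA-MB-231 0 were higher and 1 lower.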
